A study of Mus musculus with 7 samples.

Results

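Stefins and neutrophil antiproteases were followed in RNA of mouse granulocytes, white cells among which neutrophils are the commonest kind. The 9 genes were chosen by name, as the rows of the deposited count table whose Ensembl identifier maps to Stfa1, Stfa2, Stfa2l1, Stfa3, Cstb, Slpi, Wfdc17, Wfdc21 or Serpinb1a. All 9 were found among the 51789 genes of the table, and all 9 passed the low-count filter that kept 12506 genes for testing. The cells were wild type (n = 4 libraries) or knockout (n = 3) for Alox15, which encodes a lipid-oxidising lipoxygenase, and the label untreated applied to both groups. The sources used here give no strain, age, tissue of origin or sorting, and do not say which exons of Alox15 are lost. The labels do not state that the replicates came from separate animals, so p-values reflect only how these libraries varied, and that variation may be technical. The series concerns ferroptosis of neutrophils in tumours.

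Stefins are small inhibitors that act inside the cell on papain-like cysteine proteases, such as cathepsins B, H, L and S. Mice carry a cluster of stefin A genes in place of a single gene, and neutrophils are a main site of their expression. WAP-domain proteins share a small fold held by disulfide bonds. The best known of them, Slpi, inhibits neutrophil elastase and cathepsin G. Serpinb1a, a serpin of the cytosol, inhibits the same granule serine proteases and protects neutrophils from their own enzymes.

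The stefin A genes are near copies of each other, and their promoters are shown because the genes differed in which libraries held their transcripts although the upstream sequences are alike. RefSeq promoters (GRCm38.p6, from 250 bases before to 50 after the gene start) were matched for 6 of the 9 genes, namely the 4 stefin A genes, Slpi and Wfdc17. Printed are the 4 stefin A promoters and that of Cstdc5, the RefSeq gene that lies within the row named BC100530 on the same strand. They lie at chr16:36408314-36408613 (Stfa2, minus strand), chr16:36455343-36455642 (Stfa3, minus), chr16:36367521-36367820 (Cstdc5, minus), chr16:36276898-36277197 (Stfa1, plus) and chr16:36156561-36156860 (Stfa2l1, plus). Capitals mark the longest run that all 5 share.
Stfa2: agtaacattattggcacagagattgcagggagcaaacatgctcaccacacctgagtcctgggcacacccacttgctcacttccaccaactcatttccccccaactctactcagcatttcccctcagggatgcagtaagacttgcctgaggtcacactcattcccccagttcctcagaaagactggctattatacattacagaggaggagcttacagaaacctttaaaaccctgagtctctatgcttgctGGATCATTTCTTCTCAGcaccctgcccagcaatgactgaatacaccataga
Stfa3: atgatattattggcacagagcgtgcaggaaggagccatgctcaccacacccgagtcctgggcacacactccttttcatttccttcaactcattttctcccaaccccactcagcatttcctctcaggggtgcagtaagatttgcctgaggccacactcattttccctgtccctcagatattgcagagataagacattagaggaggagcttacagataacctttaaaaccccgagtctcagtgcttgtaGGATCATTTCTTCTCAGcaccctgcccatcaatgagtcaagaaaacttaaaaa
Cstdc5: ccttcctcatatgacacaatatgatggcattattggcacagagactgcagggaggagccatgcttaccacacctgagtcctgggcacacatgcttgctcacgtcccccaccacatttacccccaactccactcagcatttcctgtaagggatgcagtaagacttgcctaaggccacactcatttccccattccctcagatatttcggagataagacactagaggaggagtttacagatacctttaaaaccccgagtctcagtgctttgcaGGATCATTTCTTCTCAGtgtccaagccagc
Stfa1: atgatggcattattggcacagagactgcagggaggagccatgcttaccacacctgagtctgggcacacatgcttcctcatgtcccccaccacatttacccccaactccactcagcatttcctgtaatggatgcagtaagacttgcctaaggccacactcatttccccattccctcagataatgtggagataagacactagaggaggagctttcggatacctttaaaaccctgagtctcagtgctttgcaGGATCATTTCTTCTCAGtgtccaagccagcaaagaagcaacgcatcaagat
Stfa2l1: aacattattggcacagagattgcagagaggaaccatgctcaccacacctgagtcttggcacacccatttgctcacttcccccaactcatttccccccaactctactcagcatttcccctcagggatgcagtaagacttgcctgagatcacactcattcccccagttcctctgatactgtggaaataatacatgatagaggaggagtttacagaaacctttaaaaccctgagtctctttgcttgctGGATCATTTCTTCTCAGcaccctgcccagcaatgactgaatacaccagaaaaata
The shared run of 17 bases, GGATCATTTCTTCTCAG, began between bases 246 and 271 of the 300 printed. Searched on both strands with 1 promoter per gene, it was found in 6 of 27025 promoters (0.0222%), those of the 5 genes above and Csta3, which also lies in the cluster. A TTTAAAA stretch, which resembles a TATA box, lay just upstream of the start in all 4 stefin A members and was present on either strand in 8.65% of all promoters. Pairwise identity ran from 72.3% (Cstdc5 and Stfa2l1) to 90.5% (Stfa2 and Stfa2l1), so the most alike pair was 1 gene of each strand. A match describes letters only and shows no binding.

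Total counts ran from 3228292 to 5657192 per library, and 3 counts, the upper limit behind a count of 0, equalled 0.470 to 0.919 CPM (counts scaled to 1e6 tags, on library sizes adjusted by the trimmed mean of M-values, TMM). Alox15 had 0 counts in all libraries except knockout 1, which had 1, so it does not check the labels. Neutrophil transcripts were present in every library, but the summed level of 16 neutrophil markers lay between 2977 and 31889 CPM among the wild types and between 2228 and 26287 CPM among the knockouts. Wild type 2 and knockout 3 were the low libraries, and they had the highest sums of 14 T cell markers (1276 and 1550 CPM, against 555 to 1069 CPM in the other libraries). In such bulk samples, fewer cells of a type and less RNA per cell cannot be told apart. Knockouts 2 and 3 had another stem in their sample descriptions and the sex-linked transcripts of females (Xist at 382 and 102 CPM, against 0.896 to 6.11 CPM elsewhere). Epithelial cells, which also make Slpi, left little trace, since 8 epithelial markers summed to at most 5.25 CPM and Epcam, Krt5 and Krt14 had 0 counts.

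The stefin A genes did not vary as 1 group. Stfa2 and Stfa3 were all but missing from 3 of the 4 wild-type libraries and present in the 4th and in all 3 knockouts. Stfa2l1 was present in every library, and Stfa1 followed another order again. None of the 4 passed the test of knockout against wild type.

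Stfa2 (ENSMUSG00000022902, chromosome 16, bases 36403992 to 36408457 of GRCm38, minus strand; all 9 members are annotated as protein-coding) stood at 202, 1.57, 1.99 and 1.59 CPM in wild types 1 to 4, and at 71.9, 97.1 and 21.8 CPM in knockouts 1 to 3. Behind these lay 677, 10, 10 and 6 counts in wild type and 370, 317 and 112 in knockout. Wild type 1 was thus the highest library of all and the other wild types the lowest, and the groups overlapped. The log2 fold change was 0.30 ± 1.57 (SE; edgeR quasi-likelihood adjusted p = 0.999948).

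Stfa3 (ENSMUSG00000054905, minus strand, 36450537 to 36455392) had 58.6, 0, 0.795 and 3.18 CPM in the wild types and 23.5, 62.2 and 7.98 CPM in the knockouts. The 0 in wild type 2 allows up to 0.470 CPM. Again wild type 1 lay among the knockouts, and wild types 2 to 4 lay below all of them. The log2 fold change was 1.01 ± 1.53 (SE; edgeR adjusted p = 0.999948).

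Stfa2l1 (ENSMUSG00000059657, plus strand, 36156811 to 36161953) had 207, 7.52, 37.1 and 38.7 CPM in the wild types and 98.0, 66.5 and 15.4 CPM in the knockouts. Its lowest libraries were wild type 2 and knockout 3, the 2 libraries lowest in neutrophil markers. Wild types 3 and 4 held it at over 10 times their level of Stfa2. The log2 fold change was -0.27 ± 0.98 (SE; edgeR adjusted p = 0.999948).

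Stfa1 (ENSMUSG00000071562, plus strand, 36276951 to 36285373) had the lowest mean CPM of the members in both groups. In wild types 2 to 4, however, Stfa3 was lower still, as was Stfa2 in wild types 3 and 4. Stfa1 had 1.79, 1.25, 8.54 and 14.0 CPM in the wild types and 20.4, 14.4 and 0.389 CPM in the knockouts. Here wild type 1, the richest library in neutrophil markers and in Stfa2, was among the low ones with 6 counts. Knockout 3 had 2 counts, under the limit of 3. The log2 fold change was 0.87 ± 1.13 (SE; edgeR adjusted p = 0.999948).

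The 5 further rows of the cluster were examined next, and a split by strand, noticed after the values were seen, is given without a test. BC100530, on the minus strand between Stfa1 and Stfa2, had 542 CPM in wild type 1, 1.10, 6.75 and 10.1 CPM in wild types 2 to 4, and 167, 267 and 84.1 CPM in the knockouts. BC117090, the remaining minus-strand row, had 0 counts in wild types 2 to 4, against 40 in wild type 1 and 46, 7 and 10 in the knockouts. All 4 minus-strand rows were therefore lower in each of wild types 2 to 4 than in any other library. The labels give no strain for any library, so whether the libraries differ in genetic background was not tested. Of the plus-strand rows, Gm5483 (named Cstdc4 in RefSeq) lay between 30.4 and 329 CPM among the wild types and between 59.8 and 303 CPM among the knockouts. Gm5416 lay between 1.72 and 48.7 CPM and between 12.5 and 22.4 CPM. The fifth, 2010005H15Rik, had 0, 12, 47 and 100 counts in the wild types and 158, 4 and 1 in the knockouts, and so, like Stfa1, was low in wild type 1 and knockout 3. Csta1, which lies at the edge of the cluster, had 0 counts in all 7 libraries.

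**Figure D1:**
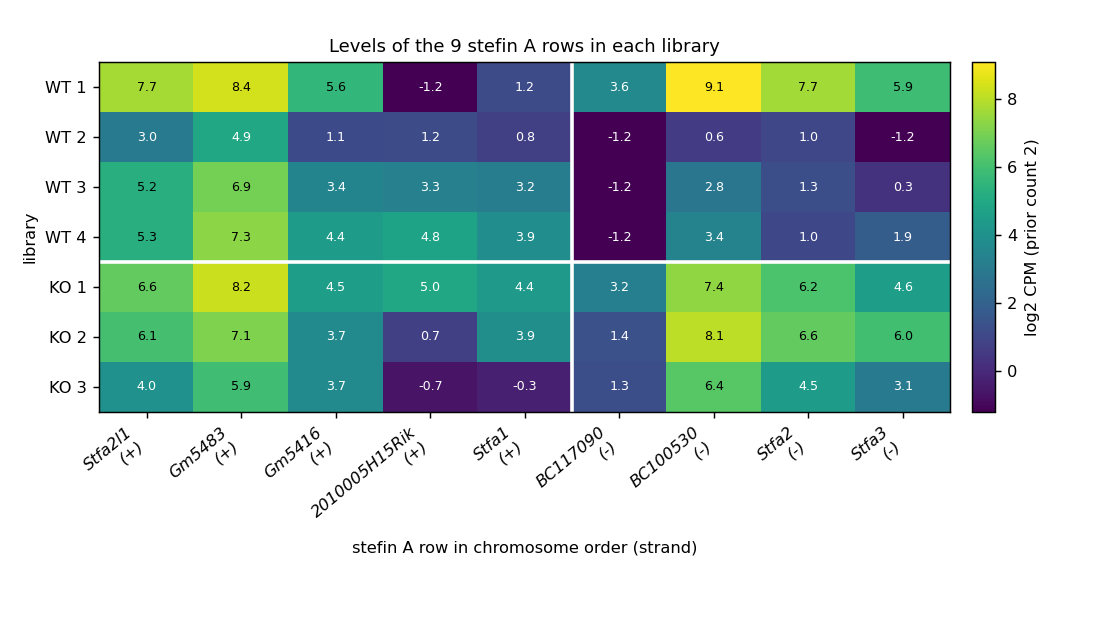
Log2 CPM (prior count 2) of the 9 stefin A rows, in chromosome order with their strand, in each of the 7 libraries. Each of the 4 minus-strand rows on the right is lowest in wild types 2 to 4, where Stfa2 stood at 1.57 to 1.99 CPM, while Stfa2l1 and Gm5483 on the left are present in every library.

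A share of the stefin A counts is unaffected by anything that scales all rows of the cluster alike. The 4 minus-strand rows took 58.1% of the stefin A counts in wild type 1 (Wilson 95% interval 56.7 to 59.5%). They took 5.86% (3.69 to 9.19%), 4.88% (3.70 to 6.41%) and 5.46% (4.23 to 7.03%) in wild types 2 to 4. In the knockouts they took 36.4% (34.9 to 37.9%), 65.0% (62.9 to 67.0%) and 56.8% (53.8 to 59.7%). These intervals treat every count as independent and leave out differences between libraries. No molecular identifiers are named, so repeated copies of 1 molecule may make them too narrow. Stfa2 per count of Stfa2l1, its closest relative by promoter, was 0.976 in wild type 1, 0.734, 1.46 and 1.42 in the knockouts, and 0.208, 0.0535 and 0.0411 in wild types 2 to 4.

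**Figure D2:**
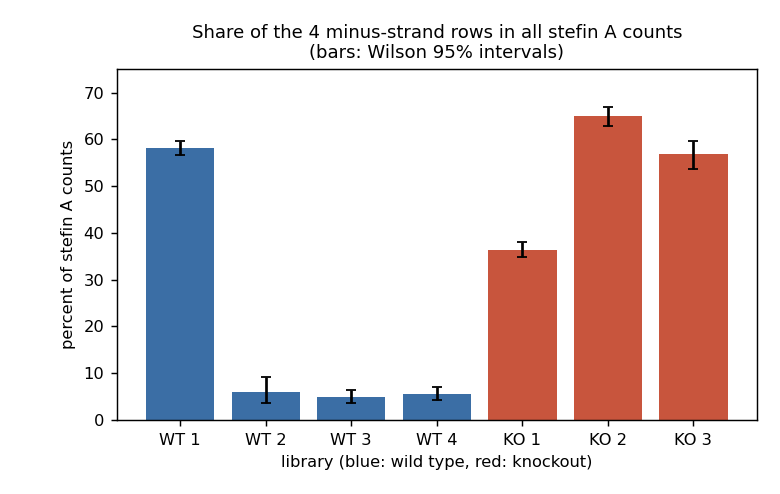
Percent of all stefin A counts that fell on the 4 minus-strand rows, in each library, with Wilson 95% intervals. Wild types 2 to 4 lie near 5%, while wild type 1 and the 3 knockouts lie between 36.4% and 65.0%.

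Reads of near copies could be split between rows, and the counting rule is not given in the sources used here. In the last 400 bases of the annotated coding transcripts, where 3′ tags fall, the share of 50-base words also found in a transcript of another gene was 19.1% for Stfa2, 24.2% for Stfa2l1, 29.6% for Stfa1 and 50.4% for BC100530. For Stfa3 it was 0 of 351 words. How reads were assigned between the rows was not tested. Summed to 1 row, the 9 stefin A rows stood at 1401, 45.4, 195 and 271 CPM in the wild types and 746, 659 and 204 CPM in the knockouts, and the log2 fold change of the sum was 0.17 ± 0.97 (SE). Without wild type 1 it was 1.62 ± 0.67.

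A pair of secondary granule genes stood high in some of the same libraries as Stfa2. Ltf, which encodes lactoferrin, was at 280 CPM in wild type 1, 222 and 299.9 CPM in knockouts 1 and 2, and 11.7 to 23.0 CPM in wild types 2 to 4, but at 4.67 CPM in knockout 3, where Stfa2 was 21.8 CPM. Ngp, neutrophilic granule protein, likewise had 387, 269 and 323 CPM against 22.7 to 51.4 CPM, and 8.96 CPM in knockout 3. Both belong to the 16 neutrophil markers and were chosen after their values were seen. The marker Ly6g likewise had 64.5, 66.7 and 52.7 CPM against 3.45 to 10.9 CPM, and 4.09 CPM in knockout 3. The mean log2 CPM of all 16 markers was also higher in knockouts 1 and 2 (8.86 and 8.67) than in wild types 3 and 4 (7.47 and 7.45). The markers Cxcr2 and S100a8, however, did not separate these libraries. In wild types 3 and 4, Cxcr2 had 382 and 686 CPM, against 461 and 552 CPM in knockouts 1 and 2. S100a8 had 4072 and 6714 CPM against 7695 and 4385 CPM. The part of these genes in the result was not tested. Wild type 1, knockout 1 and the 3 low wild types share a description stem and had Ddx3y, a Y-linked gene, at 19.3 to 119 CPM, so the split was present within that stem. The other stem holds knockouts alone, so stem, sex-linked transcripts and genotype cannot be told apart for knockouts 2 and 3.

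Cstb, the gene of stefin B, a housekeeping inhibitor of cysteine cathepsins that is found in most cells, differed 3.52-fold between its lowest and highest library, a span above that of 52.7% of tested genes. It lies alone on the plus strand of chromosome 10 (ENSMUSG00000005054, 78425669 to 78427622). Its level was 227, 78.8, 188 and 240.4 CPM in the wild types and 277, 144 and 134 CPM in the knockouts. The lowest library was wild type 2 and the groups overlapped almost fully. Means were 184 ± 73.4 CPM (SD, n = 4) and 185 ± 79.8 CPM (SD, n = 3), with a log2 fold change of 0.01 ± 0.43 (SE; edgeR adjusted p = 0.999948).

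Slpi (ENSMUSG00000017002, minus strand of chromosome 2, 164354070 to 164389095), the secreted inhibitor of elastase, gave the most tags of the 9 genes. It stood at 1851, 117, 577 and 560 CPM in the wild types and 879, 856 and 226 CPM in the knockouts. Wild type 1 was highest, and wild type 2 and knockout 3 were lowest. Means were 776 ± 748 CPM (SD, n = 4) and 654 ± 370.4 CPM (SD, n = 3), so the spread within wild type was as large as its mean.

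The neighbours Wfdc17 and Wfdc21 lie on the plus strand of chromosome 11. Wfdc17 (ENSMUSG00000069792, 83703991 to 83706268), a WAP-domain gene known from activated macrophages and microglia, had 737, 85.7, 268 and 555 CPM in the wild types and 574, 221 and 125 CPM in the knockouts. Wfdc21 (ENSMUSG00000051748, 83746940 to 83752642), a small secreted WAP-domain protein gene, had 278, 13, 68.9 and 132 CPM and 183, 115 and 41.7 CPM. For both, wild type 1 was the highest and wild type 2 the lowest library, and in the knockouts the order was 1, 2, 3. The log2 fold changes of Slpi, Wfdc17 and Wfdc21 were -0.25 ± 0.81, -0.42 ± 0.73 and -0.12 ± 0.85 (SE), each with an edgeR adjusted p of 0.999948. Macrophage and monocyte markers, which could carry Wfdc17, summed to 245 to 745 CPM in wild type and 339 to 1793 CPM in knockout, highest in knockout 1, and their part in these values was not tested.

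Serpinb1a (ENSMUSG00000044734, minus strand of chromosome 13, 32842092 to 32851185) was the steadiest member. It had 41.5, 63.3, 58.4 and 30.7 CPM in the wild types and 46.1, 59.4 and 60.8 CPM in the knockouts. The 2 libraries lowest in neutrophil markers, wild type 2 and knockout 3, were its 2 highest. The log2 fold change was 0.19 ± 0.32 (SE; edgeR adjusted p = 0.999948), and 3.56% of the 50-base words at its 3′ end occurred in Serpinb1b or Serpinb1c, which both had 0 counts.

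**Figure D3:**
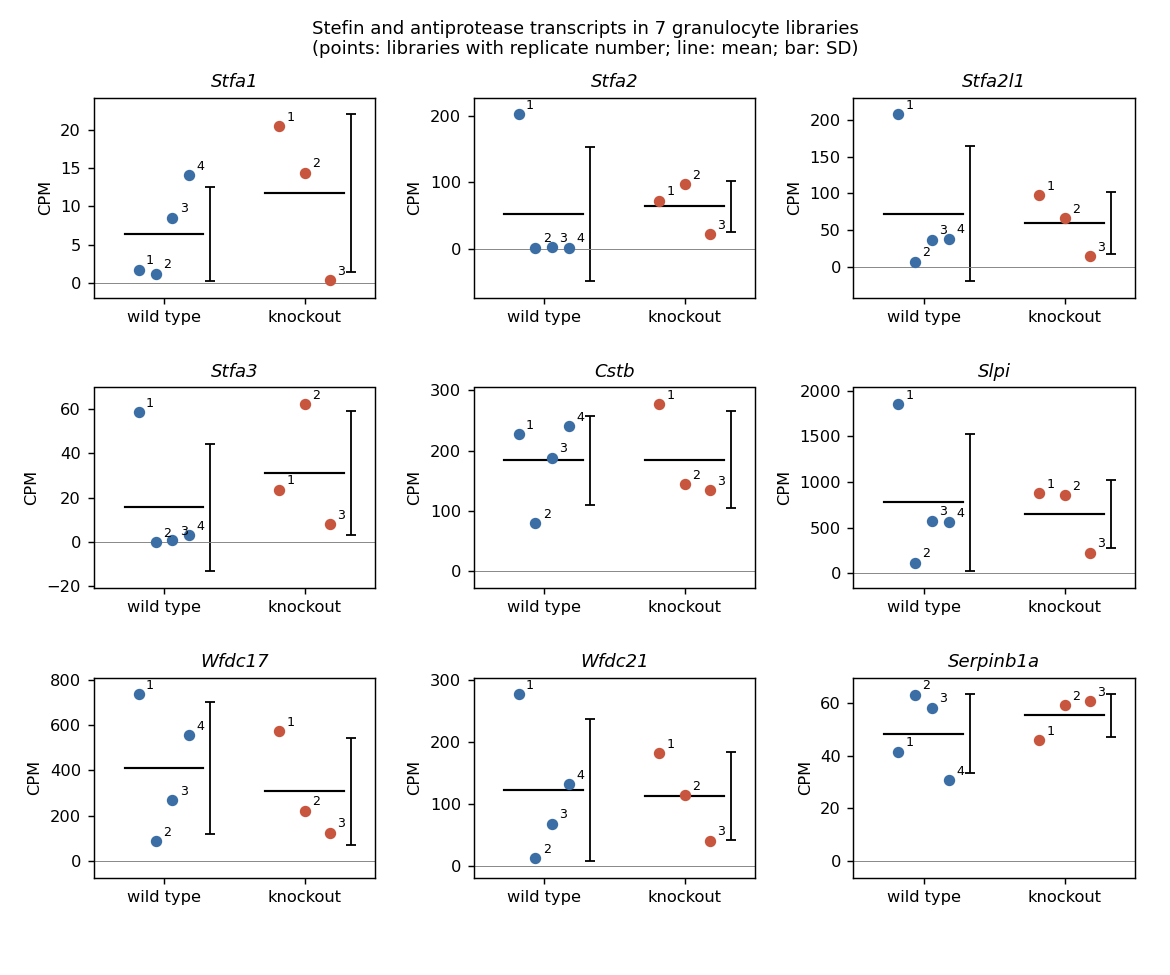
CPM of the 9 genes in each library (points, with replicate number), with the mean (line) and SD (bar) of wild type (n = 4) and knockout (n = 3); axes differ between panels. Wild type 1 is the highest wild-type point for Stfa2, Stfa2l1, Stfa3, Slpi, Wfdc17 and Wfdc21, and the groups overlap for all 9 genes.

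In the comparison of knockout with wild type, which asks what differs in granulocytes without Alox15, 0 of the 9 genes passed an edgeR adjusted p of 0.05, where 0.0% of the 12506 tested genes passed. At an unadjusted p under 0.05 there were 0 of 9 in edgeR, against 1.23% of all tested genes. There were 0 of 9 in DESeq2, against 213 of all 12506 genes, and 2 in limma-voom, against 4.27% of all genes there. Of the 9, 5 were nominally higher and 4 nominally lower in knockout, with a median log2 fold change of 0.01, the same as that of all tested genes (0.01). The groups overlapped for all 9, while 3.13% of tested genes had groups that did not.

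Of the libraries left out in turn, wild type 1 moved the values of Stfa2 and Stfa3 most. For both genes it was the wild type already seen to lie with the knockouts, so p-values from leaving it out are no independent support. Without it, the log2 fold change of Stfa2 was 5.14 ± 0.59 (SE, 3 against 3 libraries; edgeR unadjusted p = 1.22e-05, adjusted p = 0.0746) and that of Stfa3 was 4.60 ± 1.21 (unadjusted p = 0.00520, adjusted p = 0.999803, edgeR). These were the 2 of 9 genes with an unadjusted p under 0.05 in that fit, where 2.49% of all tested genes had one. Neither passed after adjustment. Over the 17 alternatives the adjusted p of Stfa2 ran from 0.0746 to 1 and that of Stfa3 from 0.888 to 1. Limma-voom with quality weights, on all 7 libraries, gave 4.70 ± 0.95 for Stfa2 and 5.27 ± 1.57 for Stfa3 (adjusted p = 0.888 for both).

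**Figure D4:**
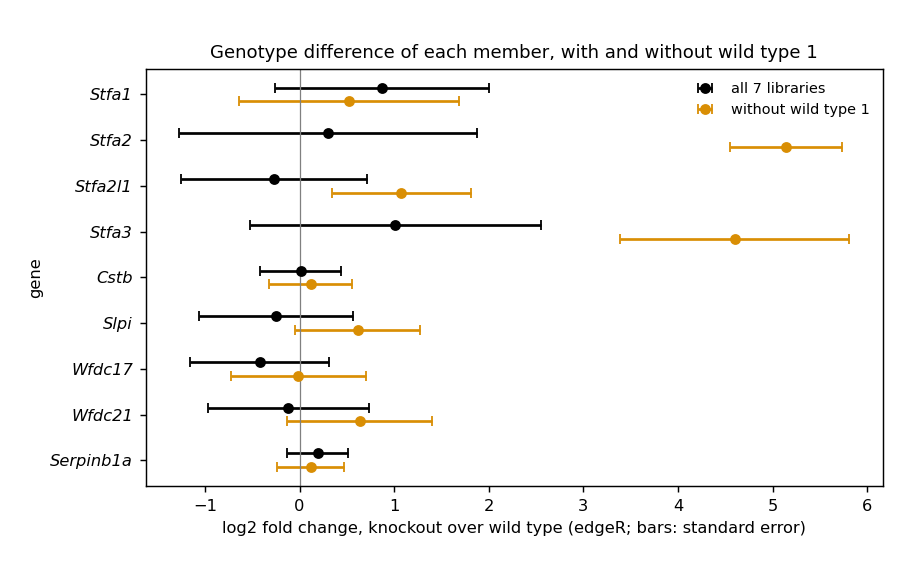
Log2 fold change of knockout over wild type for each gene in edgeR, with its standard error, from all 7 libraries and without wild type 1. Stfa2 moves from 0.30 to 5.14 and Stfa3 from 1.01 to 4.60, while Cstb and Serpinb1a stay near 0.

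The spread of most of the 9 genes was smaller when set beside the neutrophil markers. The difference between the highest and lowest of the 7 libraries was a median of 4.37 log2 units over the 9 genes, against 1.73 over all tested genes. It was 7.16 for Stfa3 and 6.66 for Stfa2, above 99.9% and 99.8% of tested genes, and 1.03 for Serpinb1a, above 19.9%. The mean log2 CPM of the 16 neutrophil markers, none of which is among the 9 genes, spanned 4.12 log2 units. With that mean subtracted in each library, 7 of the 9 genes had a smaller SD over the libraries, as did 11.2% of all tested genes. The exceptions were Cstb (0.62 before, 1.23 after) and Serpinb1a (0.38 before, 1.79 after).

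Slpi and Stfa2l1 stayed closest to the markers, with SDs of 0.60 and 0.56 after subtraction. Slpi lay 0.92 to 2.70 log2 units above the marker mean, and Stfa2l1 lay between -2.70 and -1.14. Stfa2 still had an SD of 2.31. It lay at -6.44 to -4.69 in wild types 2 to 4, at -1.57 in wild type 1 and at -2.69, -2.06 and -0.65 in knockouts 1 to 3. Knockout 3, the library with the lowest marker mean, thus held the most Stfa2 beside its markers, as it did for every other member except Stfa1. With the marker mean as a covariate in edgeR, the SE of the log2 fold change narrowed from 0.81 to 0.34 for Slpi and from 0.98 to 0.38 for Stfa2l1, whose values were then 0.02 and 0.12. For Stfa2 the value was 2.07 ± 1.80 and for Stfa3 2.43 ± 1.34, and 0 of the 9 genes passed.

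**Figure D5:**
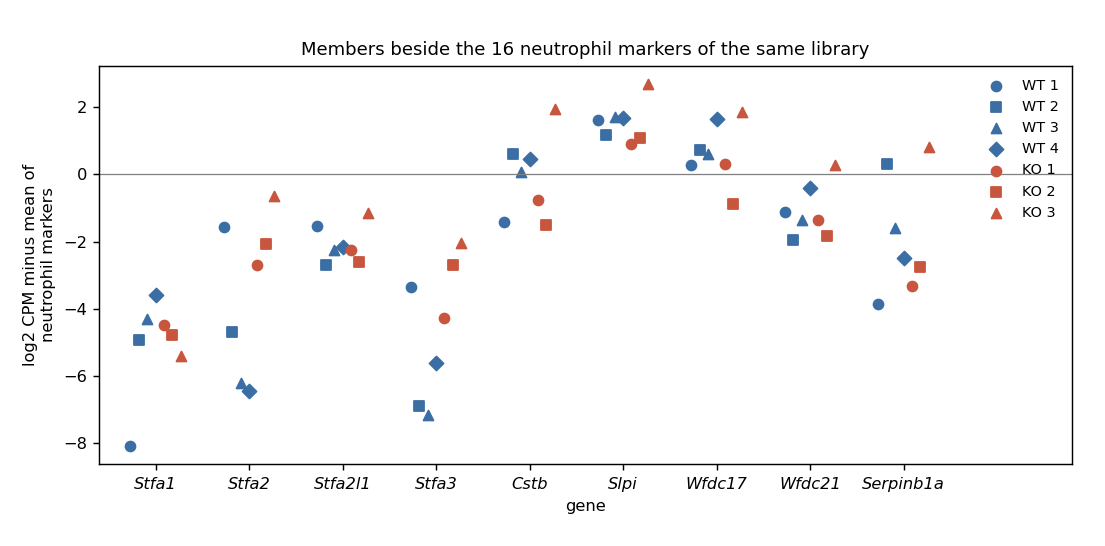
Log2 CPM of each gene minus the mean log2 CPM of 16 neutrophil markers in the same library (circles, squares, triangles and diamonds: replicates 1 to 4; blue: wild type, red: knockout). Stfa2 splits into wild types 2 to 4 at -4.69 or lower and the other 4 libraries at -2.69 or higher, while the Stfa2l1 points lie between -2.70 and -1.14.

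The genes most like each member were sought among 8323 genes whose log2 CPM averaged 3 or more, by the root mean square difference of centred log2 CPM over the 7 libraries, leaving out the 9 members and rows with clone or predicted names. For Stfa2l1 they were Ier3, an immediate early gene (0.21 log2 units), and Fosl2, an AP-1 factor (0.25), and for Slpi they were the interleukin 4 receptor gene Il4ra (0.16) and again Fosl2 (0.18). Wfdc17 lay nearest to the chemokine gene Ccl4 (0.21) and the interferon-inducible GTPase gene Igtp (0.23), and Wfdc21 to Prrg2 and Gvin1 (0.29 and 0.30). For Cstb they were Prcp and Necap2 (0.11 and 0.18), and for Serpinb1a Zfp646 and Idh3g (0.10 for both). For Stfa2, Chil3, which encodes a chitinase-like protein of myeloid cells, came first at 1.12 log2 units and Saa3, an acute phase gene, second at 1.22. The clone-named stefin A row BC100530 lay closer to Stfa2 than both, at 0.80 log2 units. Chil3 had 40.9 CPM in wild type 1, 1.10 to 4.77 CPM in wild types 2 to 4 and 32.5, 93.1 and 13.05 CPM in the knockouts. Saa3 had 534 CPM in wild type 1, 19.4 to 59.8 CPM in the others and 359, 244 and 193 CPM in the knockouts. Stfa1 and Stfa3, with a lower mean, were not compared.

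Among the target proteases, Elane, which encodes the elastase that Slpi and Serpinb1a inhibit, had 0 counts in all 7 libraries. Ctsg had 1 count in knockout 2 alone, and Prtn3 had at most 5 counts in a library. Prss57, a further granule serine protease, was the one tested, and averaged 40.1 ± 15.9 CPM over the wild types (SD, n = 4) against 51.3 ± 25.4 CPM over the knockouts (SD, n = 3). Of 10 cysteine cathepsins, the targets of the stefins, 8 were tested, 7 nominally higher and 1 lower in knockout, and 0 passed (median log2 fold change 0.62, against 0.01 for all tested genes). Ctsz, Ctsh, Ctss and Ctsc had the smallest unadjusted p, with log2 fold changes of 0.63 ± 0.42, 0.60 ± 0.46, 0.68 ± 0.66 and 0.71 ± 0.70 (SE; adjusted p = 0.999948 for each in edgeR). Macrophage and monocyte markers stood on the same side, with 14 of 14 nominally higher (median 0.82), and their part in the cathepsin values was not tested.

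Few of the other inhibitors gave enough tags to be tested. Of 21 further WAP-domain genes, 20 were in the table, 6 had any count and 0 were tested, so Slpi, Wfdc17 and Wfdc21 were the WAP-domain genes that could be compared. Of 26 further clade B serpins, 8 had a count and 2 were tested, Serpinb9, the granzyme B inhibitor (log2 fold change -0.98 ± 0.59, SE), and Serpinb6a (-0.00 ± 0.45). Of 17 further cystatin rows in the table, 7 were tested, 4 nominally higher and 3 lower. These include the stefin A rows outside the 9 members, given above, so the counts mostly repeat that cluster. The others were Cst7 and the secreted cystatin gene Cst3. Cst3 stood at 227 ± 74.3 CPM in wild type and 207 ± 131 CPM in knockout (SD, n = 4 and n = 3). Cst7 stood at 7.51 ± 5.04 and 5.97 ± 3.31 CPM (SD, n = 4 and n = 3). All 6 tested extracellular inhibitors were nominally higher in knockout (median log2 fold change 1.02), against 6428 of the 12506 tested genes (median 0.01). Macrophage and monocyte markers (14 of 14, median 0.82) and stromal and endothelial markers (5 of 7 tested, median 0.38) were also mostly higher, and their part in the inhibitor values was not tested. Timp2, the metalloproteinase inhibitor, averaged 99.6 ± 68.0 CPM over the wild types (SD, n = 4) against 188 ± 121 CPM over the knockouts (SD, n = 3), and Serpinf1 had the smallest p (1.94 ± 0.88, SE; 0.0518 unadjusted and 0.999948 adjusted in edgeR). Serpina3g and Serping1 had log2 fold changes of 1.53 ± 1.31 and 1.12 ± 0.99 (SE). Of these 24 tested genes outside the 9 members, 0 passed in edgeR, DESeq2 or limma-voom.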

How the data were processed

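RNA of 7 mouse granulocyte libraries, made per the labels' protocols from column-purified, DNase-treated RNA with a QuantSeq 3′ tag kit, was compared between 4 wild-type and 3 Alox15 knockout libraries. The authors deposited 1 table of whole-number estimated counts per Ensembl gene. RSEM 1.2.3, DESeq2 and mm10 are named in the submitters' processing notes with no role given, so the counts may be rounded estimates, and rounding them here changed nothing. Annotation release, strand setting and multi-mapping rule are not given in the sources used here. Symbols matched 51596 of 51789 genes; coordinates are from GENCODE M21 (GRCm38, the build of mm10), 1-based. A 3′ tag count needs no length scaling.

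edgeR 4.0.16 in R 4.3.3 fitted all genes (filterByExpr, TMM, robust quasi-likelihood F test, Benjamini-Hochberg over 12506 genes, call at 0.05). Log2 CPM carry a prior count of 2. Alternatives were DESeq2 1.42.0, limma-voom (limma 3.58.1), other scalings and filters, left-out libraries, a replicate block and covariates. The test was checked on simulated counts with added changes of 2-, 4-, 8- and 16-fold. It recovered 4%, 42%, 76% and 94% of them, with 5 false calls among 11966 genes. A gene that did not pass may thus still differ by 2-fold or 4-fold, and some changes of 8-fold and 16-fold were missed too. Changes were added only to genes averaging over 8 CPM, and the simulated libraries shared no differences in neutrophil content. Recovery was not examined separately for genes as variable as Stfa2 and Stfa3. Members and gene lists were chosen with earlier results of these data known. Named genes were the members, rows of the stefin A cluster, up to 4 genes per related list by smallest unadjusted p, and the 2 genes, without clone or predicted names, nearest in pattern to each member whose log2 CPM averaged 3 or more; genes outside that rule are marked.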

Additional observations from a re-analysis of the deposited data

Results flagged for a closer look

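Wild type 1 had 5 values that stood far from the other 3 wild-type libraries, in that the gap to the next library, as a share of the range of the group, passed Dixon's 95% critical value for 4 samples. They were Stfa2 at 202 CPM, Stfa2l1 at 207 CPM, Stfa3 at 58.6 CPM, BC117090 at 12.0 CPM and BC100530 at 542 CPM. All belong to 1 gene cluster and 1 library, so they are not independent of each other. 14 genes were examined this way, on CPM without a log transform. Chance alone gives such a gap in about 1 in 20 groups only where values are normally distributed, which 4 libraries cannot show. The gaps were not examined on log2 CPM, where a flag may not hold. The level of Slpi in the same library, 1851 CPM, did not pass that value.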

How the results depend on the processing

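No gene was called under 16 of the 17 alternatives, and DESeq2 called 1 gene, lower in knockout and not among the 9. None of the 9 genes passed under any alternative. Stfa3 kept its direction under all 17 alternatives, and Stfa1, Wfdc17 and Serpinb1a changed sign under 1 each. The sign changed under 4 for Stfa2, 5 for Cstb and Slpi and 6 for Stfa2l1 and Wfdc21. The causes were not tested. Limma-voom gave log2 fold changes of 1.02 for Stfa2l1, 0.62 for Slpi, 0.84 for Wfdc21 and 1.56 for the summed stefin A rows. The description stem as a covariate gave 0.44 for Stfa2l1, 0.18 for Slpi, 0.48 for Wfdc17, 0.57 for Wfdc21 and -0.075 for Serpinb1a. The neutrophil marker covariate gave -0.35 for Stfa1, 0.12 for Stfa2l1, 0.017 for Slpi and 0.15 for Wfdc21. Cstb was -0.00051 with relative log expression factors, -0.00045 in DESeq2 and -0.098 without wild type 2 and knockout 3 together.

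Leaving out each library in turn gave ranges of 0.19 to 1.55 for Stfa1, -0.14 to 5.14 for Stfa2, -0.83 to 1.08 for Stfa2l1, 0.030 to 4.60 for Stfa3, -0.40 to 0.17 for Cstb, -0.61 to 0.61 for Slpi, -1.25 to -0.012 for Wfdc17, -0.65 to 0.64 for Wfdc21, 0.024 to 0.35 for Serpinb1a and -0.21 to 1.62 for the summed stefin A rows. The values without wild type 1 were the highest of these for Stfa2, Stfa2l1, Stfa3, Slpi, Wfdc17, Wfdc21 and the sum.

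Whether replicate numbers pair the libraries is not known. Deviations from the group mean had correlations of 0.35, -0.22 and -0.18 in same-numbered pairs. Differently numbered pairs ran from -0.48 to 0.47, so these few values cannot decide it. With the replicate block 0 genes were called, and Stfa2 was 2.80, Stfa3 3.07, Stfa2l1 0.033 and Wfdc21 0.44. Depth limits the rows with few counts, namely Stfa1 in knockout 3 and Stfa2 and Stfa3 in wild types 2 to 4.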
